A study of Arabidopsis thaliana with 12 samples.

Results

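The COR413 family of Arabidopsis thaliana was followed in whole seedlings of the mutant line cbfs-1 and of its wild type (WT, accession Col) before and during cold. The members were taken by locus from the deposited expression table: AT2G15970 (COR413-PM1), AT3G50830 (COR413-PM2), AT4G37220 (annotated as a member of the WCOR413 family, without a symbol of its own), AT1G29395 (COR413IM1) and AT1G29390 (COR413IM2). These are 5 of the 24616 genes in the table, and all 5 passed the filter on low values. Seedlings were 14 days old, raised at 22 °C in long days on half-strength MS medium, and were sampled after 0, 3 and 24 h at 4 °C. The groups were therefore cbfs-1 at 0, 3 and 24 h and WT at 0, 3 and 24 h, with 2 libraries each and 12 in all. Both genotypes had the same growth conditions, and no transgene is named in the labels. The lesion carried by cbfs-1 and the number of seedlings per library were not given in the labels used here. No library kept at 22 °C for the same hours was analysed here, so time of day and time in the cold cannot be told apart. The labels do not say that the 2 libraries of a group came from separate cultures, so the spread between them may be technical. The p-values rest on that spread alone, pooled over the 6 groups and drawn toward the spread of other genes.

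COR413 proteins are small multi-pass membrane proteins of plants, first described as products of cold-induced transcripts in cereals. The family divides into a plasma membrane branch (PM) and a branch in the inner envelope membrane of the chloroplast (IM), where COR413IM1 and COR413IM2 have been tied to freezing tolerance. In cold seedlings many such genes are switched on by the CBF transcription factors (C-repeat binding factors, also called DREB1), which bind the CRT/DRE element with the core CCGAC in promoters. Abscisic acid signalling acts through a different element, the ABRE, with the core ACGTG.

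The promoters of COR413-PM1, COR413IM1 and COR413-PM2 are shown because the first pair belong to the genes with the largest cold changes and the last to a gene that moved the other way by 24 h. Each sequence is the 300 bases before the annotated gene start in RefSeq TAIR10.1, 5′ to 3′ on the strand of the gene, with capitals for the letters of a CRT/DRE core or an ABRE core on either strand.

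COR413-PM1, chr2:6949551-6949850, plus strand: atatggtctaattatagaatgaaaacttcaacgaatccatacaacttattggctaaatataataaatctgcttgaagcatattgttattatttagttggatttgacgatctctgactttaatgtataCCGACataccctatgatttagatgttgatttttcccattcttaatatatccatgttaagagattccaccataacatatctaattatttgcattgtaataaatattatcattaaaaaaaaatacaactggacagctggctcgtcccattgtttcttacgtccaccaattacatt

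COR413IM1, chr1:10289667-10289966, minus strand: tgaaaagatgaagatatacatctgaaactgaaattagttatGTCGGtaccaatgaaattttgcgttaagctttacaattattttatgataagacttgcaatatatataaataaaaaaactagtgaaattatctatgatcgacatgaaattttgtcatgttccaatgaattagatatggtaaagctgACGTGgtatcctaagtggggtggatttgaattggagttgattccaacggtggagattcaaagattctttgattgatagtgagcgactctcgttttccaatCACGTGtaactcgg

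COR413-PM2, chr3:18895588-18895887, minus strand: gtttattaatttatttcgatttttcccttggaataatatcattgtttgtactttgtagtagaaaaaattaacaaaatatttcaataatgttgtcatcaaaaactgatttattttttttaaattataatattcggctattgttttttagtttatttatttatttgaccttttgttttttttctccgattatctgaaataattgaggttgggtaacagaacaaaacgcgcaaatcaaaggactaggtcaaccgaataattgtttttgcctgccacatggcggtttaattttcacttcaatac

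In a search of 500 bases on both strands, CCGAC was found once upstream of COR413-PM1, with its first base at -173 from the annotated start, and once upstream of COR413IM1, at -259 on the other strand. No match to CCGAC was found in the same window of COR413-PM2, AT4G37220 or COR413IM2. Of 23350 protein-coding genes, 22.0% had a CCGAC in a window of that length. ACGTG was found in 36.5% of windows. COR413IM1 had 3 such matches, at -114, -14 and -13, the last pair being both strands of a single CACGTG. AT4G37220 also had 3, at -137, -136 and -101, again with a CACGTG read on both strands. COR413IM2 had 2, at -27 and -15, near the 25 bases that separate it from COR413IM1; the match at -15 lies in that gap, the one at -27 crosses its edge, and the rest of the window lies inside the COR413IM1 gene. The evening element, searched as AAAATATCT, occurred in 4.51% of windows and was found upstream of AT4G37220 at -461, inside the neighbouring gene AT4G37210, which ends 318 bases away. CGCG, the core bound by CAMTA factors, occurred in 18.6% and was found upstream of COR413-PM2 at -77. CGCG reads the same on both strands, and no match of one motif overlapped a match of another motif. A match describes letters, not a site in use.

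**Figure D1:**
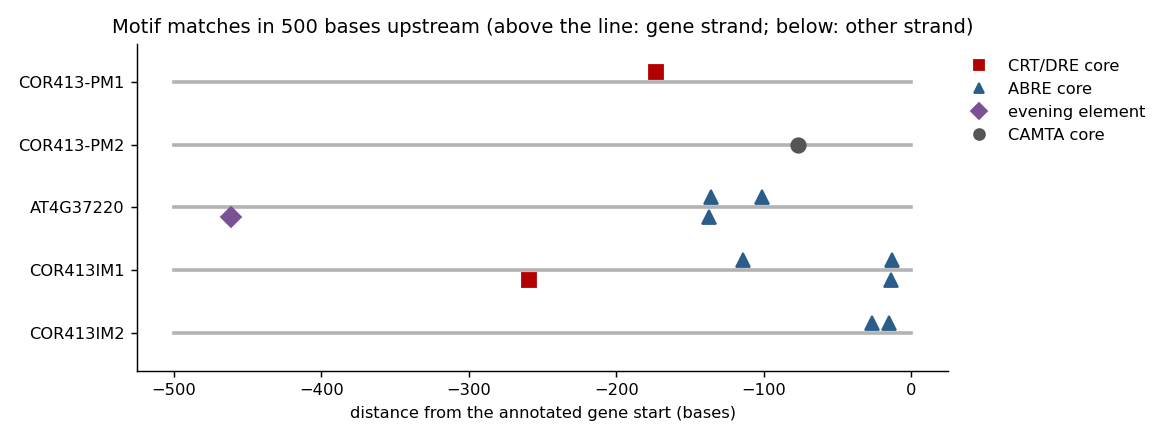
Positions of 4 promoter motifs in the 500 bases upstream of each COR413 gene, as distance in bases from the annotated start; marks above a line are on the strand of the gene, marks below are on the other strand, and a mark on the line is a motif that reads the same on both. CCGAC appears upstream of COR413-PM1 at -173 and COR413IM1 at -259.

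COR413IM1 and COR413IM2 shared 87.2% of aligned bases, COR413-PM1 shared 66.2% with COR413-PM2 and 67.7% with AT4G37220, and identity between a PM-branch gene and an IM gene was 51.0% to 57.1%. COR413-PM1 lies on chromosome 2 at 6949851 to 6951192 and has 4 exons. COR413-PM2 lies on chromosome 3 at 18893739 to 18895587, and AT4G37220 on chromosome 4 at 17515042 to 17516162. COR413IM1 (chromosome 1, 10288129 to 10289666, 6 exons) and COR413IM2 (chromosome 1, 10286067 to 10288103, 5 exons) are tandem neighbours on the minus strand with 25 bases between them. RefSeq names the COR413IM2 product as a thylakoid rather than an envelope protein. Of 972 stretches of 50 bases in COR413IM1 transcripts, 10, or 1.03%, occur exactly in another gene. For COR413IM2 the share was 4.45%, which includes its overlap of 98 bases with AT1G29380 on the opposite strand. Because it is not stated whether strand was used in counting, reads from that overlap cannot be assigned to either gene. The other 3 members shared no such stretch. Only exact matches of 50 bases were counted, so these shares do not bound the reads that similar copies could share.

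The libraries held 16849042 to 22800552 counted reads. Values are normalized reads, that is gene reads divided by a size factor for the library, and 3 reads correspond to 2.46 to 3.28 on that scale. COR413-PM1 rested on 2230 to 40784 reads per library, COR413IM1 on 161 to 7172, COR413-PM2 on 529 to 1186, COR413IM2 on 369 to 1247 and AT4G37220 on only 10 to 59. Transcripts of the CBF genes were counted in cbfs-1 as well as in WT. At 3 h CBF3 had 1158 and 1095 normalized reads in cbfs-1, against 6133 and 7126 in WT, CBF1 had 1540 and 2475 against 1129 and 2023, and CBF2 had 7570 and 8377 against 5093 and 6769. At 0 h CBF3 stood at 175 and 138 in cbfs-1, against 15.3 and 7.59 in WT, higher in cbfs-1 (log2 difference 3.72, adjusted p = 0.00785). Without the lesion, transcript counts of these genes do not check the genotype labels. At 24 h CBF3 stood at 893 and 799 in cbfs-1, against 404 and 180 in WT, a difference that was not called (adjusted p = 0.0885). The leaf markers were abundant and the root markers present in all libraries, as in whole seedlings. Because these are bulk samples, fewer cells of a type and less RNA per cell cannot be told apart.

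Normalized reads of COR413-PM1, the plasma membrane member known as a cold-induced gene, were 2728 and 2111 before cold, 4244 and 3378 after 3 h, and 7036 and 6185 after 24 h, in cbfs-1 (replicates 1 and 2). The WT libraries had 3130 and 2952 before cold, 7804 and 5948 after 3 h, and 43142 and 28498 after 24 h. At every later time both libraries of a genotype lay above all earlier ones of that genotype, and the WT libraries at 24 h lay above all others.

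COR413-PM2, the second plasma membrane member, moved within a much narrower band. It had 790 and 806 normalized reads before cold, 1037 and 1047 after 3 h, and 570 and 524 after 24 h in cbfs-1, and 747 and 770, then 1034 and 971, then 629 and 521 in WT. In both genotypes the 3 h libraries were highest and the 24 h libraries lowest, without overlap.

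AT4G37220, of unknown function, was low throughout. Its libraries had 25.9 and 20.8 normalized reads before cold, 53.2 and 55.6 after 3 h, and 21.6 and 11.8 after 24 h in cbfs-1, and 20.7 and 10.8, then 38.3 and 36.0, then 25.4 and 10.7 in WT. The 3 h libraries were above those of the other times in each genotype, and the 0 h and 24 h libraries overlapped.

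COR413IM1, the envelope member, had 449 and 214 normalized reads before cold, 616 and 265 after 3 h, and 1077 and 897 after 24 h in cbfs-1. In WT it had 428 and 175 before cold, 955 and 441 after 3 h, and 7587 and 5751 after 24 h. Replicate 1 exceeded replicate 2 in all 6 groups, by 2.099 to 2.45 times at 0 and 3 h and by 1.20 to 1.32 times at 24 h.

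COR413IM2, its tandem copy, had 658 and 435 normalized reads before cold, 628 and 492 after 3 h, and 921 and 769 after 24 h in cbfs-1. In WT it had 584 and 400 before cold, 674 and 449 after 3 h, and 1319 and 1047 after 24 h. Its 0 h and 3 h libraries overlapped and its 24 h libraries lay above them in both genotypes, with replicate 1 again higher in all 6 groups, by 1.20 to 1.51 times.

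**Figure D2:**
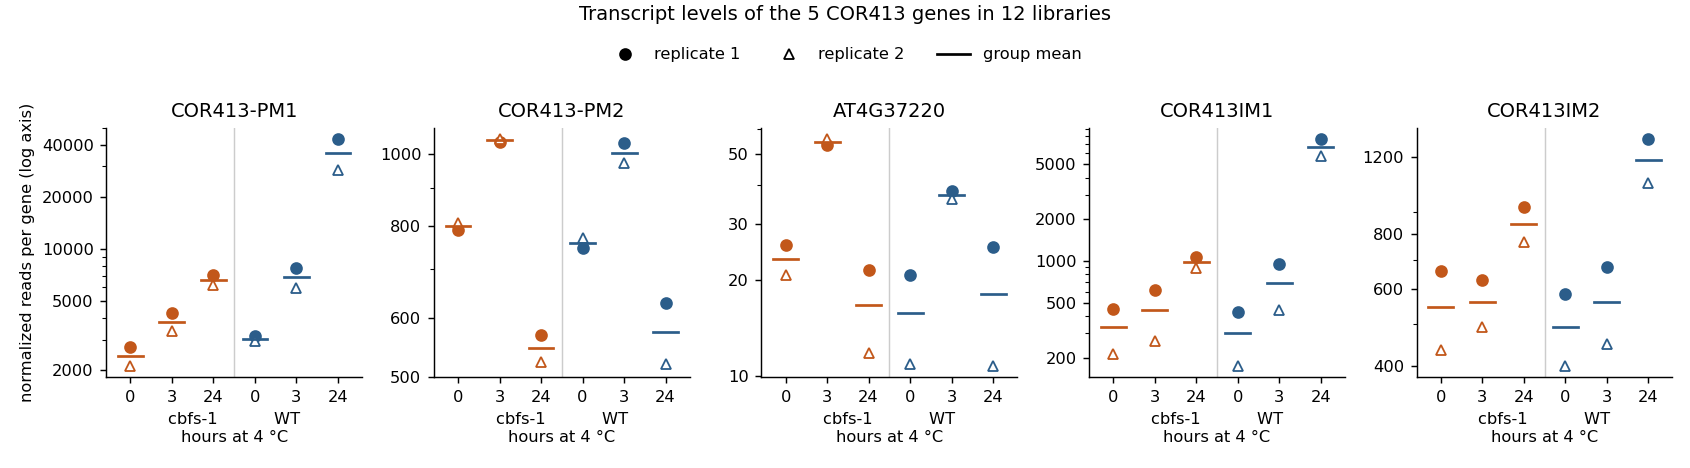
Normalized reads of the 5 genes (log axes, a separate range for each gene) after 0, 3 and 24 h at 4 °C in cbfs-1 (orange) and WT (blue); filled circles and open triangles are replicates 1 and 2, lines are group means. The WT libraries at 24 h stand apart for COR413-PM1 (43142 and 28498) and COR413IM1 (7587 and 5751), while COR413-PM2 stays between 521 and 1047.

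Ordered by group mean, COR413-PM1 ran from cbfs-1 at 0 h (2419 ± 436, SD, n = 2) through WT at 0 h, cbfs-1 at 3 h, cbfs-1 at 24 h (6611 ± 601) and WT at 3 h (6876 ± 1313) to WT at 24 h (35820 ± 10355). The ranges of cbfs-1 at 24 h and WT at 3 h overlapped, and no other neighbours in this order did. COR413IM1 had overlapping ranges between all neighbours in its first 5 groups, the last of which was cbfs-1 at 24 h (987 ± 127); WT at 24 h (6669 ± 1298) lay above them. For COR413IM2 only the 2 groups at 24 h separated from their neighbours, and for COR413-PM2 only the 2 groups at 24 h overlapped each other.

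Per kilobase of transcript, COR413-PM1 had the highest level in every library and held 59.4% to 81.2% of the family total. COR413IM1 had rank 4 at 0 h in both genotypes and rank 2 at 24 h. At 24 h it made up 11.9% and 11.4% of the family total in cbfs-1, against 15.2% and 16.9% in WT. COR413-PM2 had rank 2 at 0 h, with 15.4% and 20.5% in cbfs-1 and 13.8% and 16.3% in WT. At 24 h it had rank 4, with 5.30% and 5.59% in cbfs-1 and 1.06% and 1.29% in WT. AT4G37220 held at most 1.35%. These shares depend on the members beside them, so a falling share is not a falling level.

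**Figure D3:**
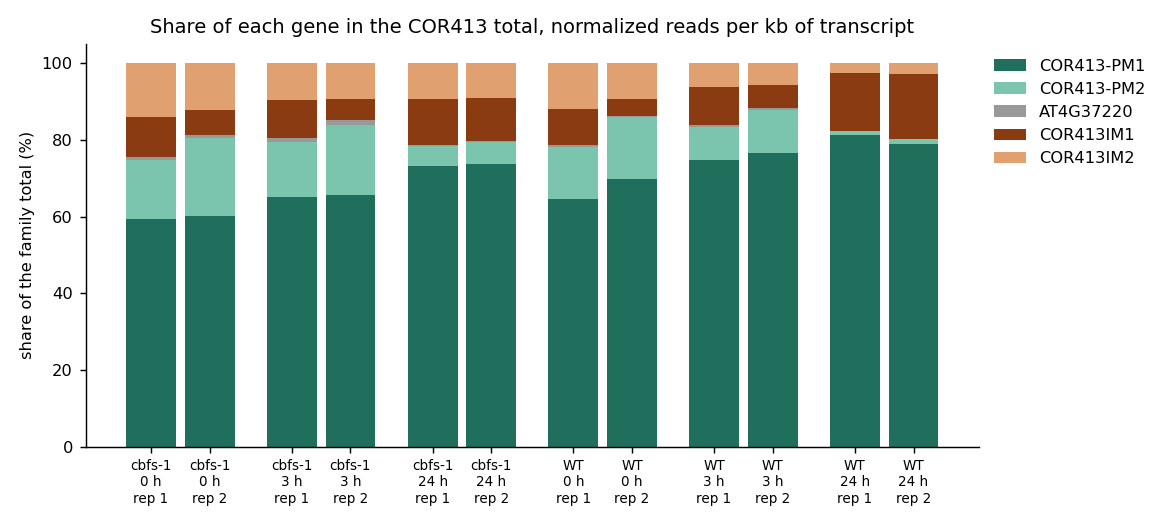
Share of each COR413 gene in the summed family level (%), from normalized reads per kilobase of transcript, with a bar for each library. COR413-PM1 holds 59.4% to 81.2%, and the share of COR413-PM2 is smallest in the WT libraries at 24 h (1.06% and 1.29%).

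The first comparison asks how the family responded in the first hours of cold. COR413-PM2 rose in cbfs-1 by 0.38 on the log2 scale of value + 1 (SE 0.10, adjusted p = 0.0416). It rose by 0.40 in WT (SE 0.10, adjusted p = 0.0318). COR413-PM1 stood at 0.66 in cbfs-1 (SE 0.22, adjusted p = 0.0986) and rose in WT by 1.16 (SE 0.22, adjusted p = 0.00860). AT4G37220 was about as far above 0 h in both genotypes, at 1.19 in cbfs-1 (SE 0.43, adjusted p = 0.136) and 1.25 in WT (SE 0.43, adjusted p = 0.110), without passing the test. COR413IM1 was 0.38 higher in cbfs-1 (SE 0.55) and 1.24 higher in WT (SE 0.55, adjusted p = 0.212), and COR413IM2 stood at 0.05 in cbfs-1 and 0.18 in WT (SE 0.27 each); none of these passed. In all, 1 of 5 members was called in cbfs-1, where 8.85% of all tested genes were called, and 2 of 5 in WT, where 10.1% were. Same-numbered libraries of the 0 h and 3 h groups deviated together, and with the replicate number as a block the calls were 3 of 5 in cbfs-1 and 4 of 5 in WT. Over all tested genes the block raised the calls too, from 1828 to 3063 in cbfs-1 and from 2087 to 3455 in WT, of 20666. The block added COR413-PM1 (adjusted p = 0.00294) and AT4G37220 (adjusted p = 0.0387) in cbfs-1, and COR413IM1 (adjusted p = 0.00683) and AT4G37220 (adjusted p = 0.0297) in WT. The small COR413-PM2 changes were not called in WT without any of its 4 libraries (adjusted p = 0.0599 to 0.191), and in cbfs-1 in 10 of the 12 fits that each left out a library (adjusted p up to 0.187). The COR413-PM1 call in WT was lost without WT 0 h replicate 2 (adjusted p = 0.0588) or WT 3 h replicate 1 (adjusted p = 0.0752). 

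After 24 h the family had split. COR413-PM1 rose 1.46 in cbfs-1 (SE 0.22, adjusted p = 0.000614) and 3.53 in WT (SE 0.22, adjusted p = 6.63e-06) on the same log2 scale. COR413IM1 rose 1.66 in cbfs-1 (SE 0.55, adjusted p = 0.0323) and 4.59 in WT (SE 0.55, adjusted p = 0.000192). COR413IM2 stood at 0.65 in cbfs-1 (SE 0.27, adjusted p = 0.0711), a change that was called with only the 4 libraries compared (adjusted p = 0.0335), and rose in WT by 1.28 (SE 0.27, adjusted p = 0.00377). COR413-PM2 fell in both, with changes of -0.55 in cbfs-1 (SE 0.10, adjusted p = 0.00182) and -0.40 in WT (SE 0.10, adjusted p = 0.00796). AT4G37220 was back near its 0 h level, at -0.51 in cbfs-1 (SE 0.43, adjusted p = 0.356) and 0.13 in WT (SE 0.43, adjusted p = 0.820). That is 3 of 5 members called in cbfs-1, against 48.2% of all tested genes, and 4 of 5 in WT, against 50%. With so many genes called at 24 h, a call alone says little about a member. The COR413IM1 call in cbfs-1 was lost without cbfs-1 0 h replicate 2 (change 1.13, adjusted p = 0.194), cbfs-1 24 h replicate 1 (adjusted p = 0.135) or cbfs-1 24 h replicate 2 (adjusted p = 0.0840). The COR413-PM2 call in WT was lost without WT 24 h replicate 2 (change -0.27, adjusted p = 0.0562), and COR413IM2 was called in cbfs-1 without cbfs-1 0 h replicate 1 (change 0.95, adjusted p = 0.0399).

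**Figure D4:**
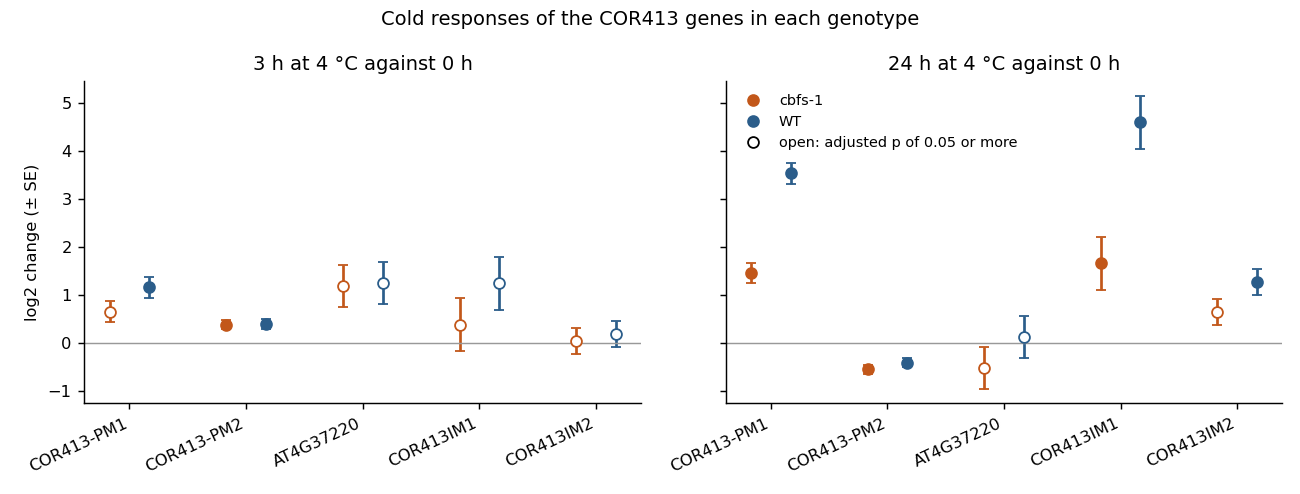
Log2 change of each COR413 gene from 0 h to 3 h (left) and from 0 h to 24 h (right) at 4 °C, cbfs-1 in orange and WT in blue; bars are the SE of the fit and open circles did not pass an adjusted p of 0.05. At 24 h COR413-PM1 and COR413IM1 reach 1.46 and 1.66 in cbfs-1, against 3.53 and 4.59 in WT, and COR413-PM2 lies below 0 in both.

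Between 3 h and 24 h, 3 of 5 members were called in cbfs-1 (42.6% of all tested genes were) and 4 of 5 in WT (42.8%). COR413-PM2 fell by 0.93 in cbfs-1 (adjusted p = 0.000149) and by 0.81 in WT (adjusted p = 0.000292), so its rise at 3 h was followed by a larger fall. AT4G37220 fell by 1.71 in cbfs-1 (SE 0.43, adjusted p = 0.0115) and was at -1.12 in WT (SE 0.43, adjusted p = 0.0629). COR413-PM1 rose by 0.80 in cbfs-1 (adjusted p = 0.0148) and by 2.36 in WT (adjusted p = 6.44e-05). COR413IM1 was at 1.28 in cbfs-1 (adjusted p = 0.0891) and rose by 3.34 in WT (adjusted p = 0.00135), and COR413IM2 was at 0.60 in cbfs-1 (adjusted p = 0.101) and rose by 1.09 in WT (adjusted p = 0.00987). With only the 4 libraries compared, both were called in cbfs-1 (adjusted p = 0.0326 and 0.0237). Leaving out cbfs-1 3 h replicate 2 or a cbfs-1 24 h library ended the calls of COR413-PM1 (adjusted p = 0.0921 and, without 24 h replicate 1, 0.0895) and AT4G37220 (adjusted p = 0.0501 and, without 24 h replicate 2, 0.0878) in cbfs-1. In WT, COR413IM2 was not called without WT 3 h replicate 2 (adjusted p = 0.0658) or WT 24 h replicate 1 (adjusted p = 0.0695). Some uncalled changes became calls, AT4G37220 in WT without WT 24 h replicate 1 (change -1.70, adjusted p = 0.0215) and COR413IM1 in cbfs-1 without cbfs-1 3 h replicate 1 (change 1.89, adjusted p = 0.0485).

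The central comparison of the study is cbfs-1 with WT at the same hour. At 24 h COR413-PM1 had 7036 and 6185 normalized reads in cbfs-1, against 43142 and 28498 in WT. Its level in cbfs-1 was 18.5% of that in WT, a log2 difference of -2.41 (95% CI -2.89 to -1.93, adjusted p = 0.00161), and it was called in every fit that left out a library. COR413IM1 stood at 14.8% of WT, with 1077 and 897 normalized reads in cbfs-1 against 7587 and 5751 in WT. Its difference of -2.75 (95% CI -3.99 to -1.51) did not pass over all genes when the 12 libraries shared an estimate of spread (adjusted p = 0.0666). Nor did it pass with edgeR, with pseudocount 5, or with quantile or TMM scaling. It passed with the 4 libraries at 24 h alone (adjusted p = 0.00214) and with DESeq2 (adjusted p = 0.00288), which called more genes in this comparison than limma. The unequal COR413IM1 replicates at 0 h and 3 h given above enter the shared estimate. COR413IM2 stood at 71.5% of WT (log2 difference -0.48, 95% CI -1.09 to 0.12, adjusted p = 0.621). COR413-PM2 stood at 95.04% (-0.07, 95% CI -0.29 to 0.15) and AT4G37220 at 92.3% (-0.05, 95% CI -1.02 to 0.92). Thus 1 of 5 members was called at 24 h, in a comparison where 0.808% of all tested genes were. The intervals of COR413IM2, COR413-PM2 and AT4G37220 include 0 in this fit, which does not show that the genotypes were alike.

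At 0 h and 3 h no member was called in the main fit. The shares of genes called are after adjustment. How many of all tested genes had an unadjusted p under 0.05 was not counted. At 0 h, where 0.0387% of tested genes were called, 0 of 5 members had an unadjusted p under 0.05 and edgeR and DESeq2 also called 0. COR413-PM1 in cbfs-1 was at 79.6% of WT (log2 difference -0.34, 95% CI -0.82 to 0.14) and the other 4 at 105% to 148%. At 3 h, where 0.029% were called, 1 member had an unadjusted p under 0.05 and edgeR and DESeq2 called 0. That member was COR413-PM1, with 4244 and 3378 normalized reads in cbfs-1 against 7804 and 5948 in WT (-0.85, 95% CI -1.33 to -0.36, adjusted p = 0.662). With the replicate number as a block this difference was called (adjusted p = 0.0226). COR413IM1 at 3 h was at 63.1% of WT (-0.68, 95% CI -1.92 to 0.56), with 616 and 265 in cbfs-1 against 955 and 441 in WT. Between same-numbered libraries its log2 difference was -0.63 and -0.73. This COR413IM1 difference was not called with the replicate number as a single block. With separate blocks for the early times (0 h and 3 h) and for 24 h it was called (limma, adjusted p = 0.00306), in a fit that called 88 genes.

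**Figure D5:**
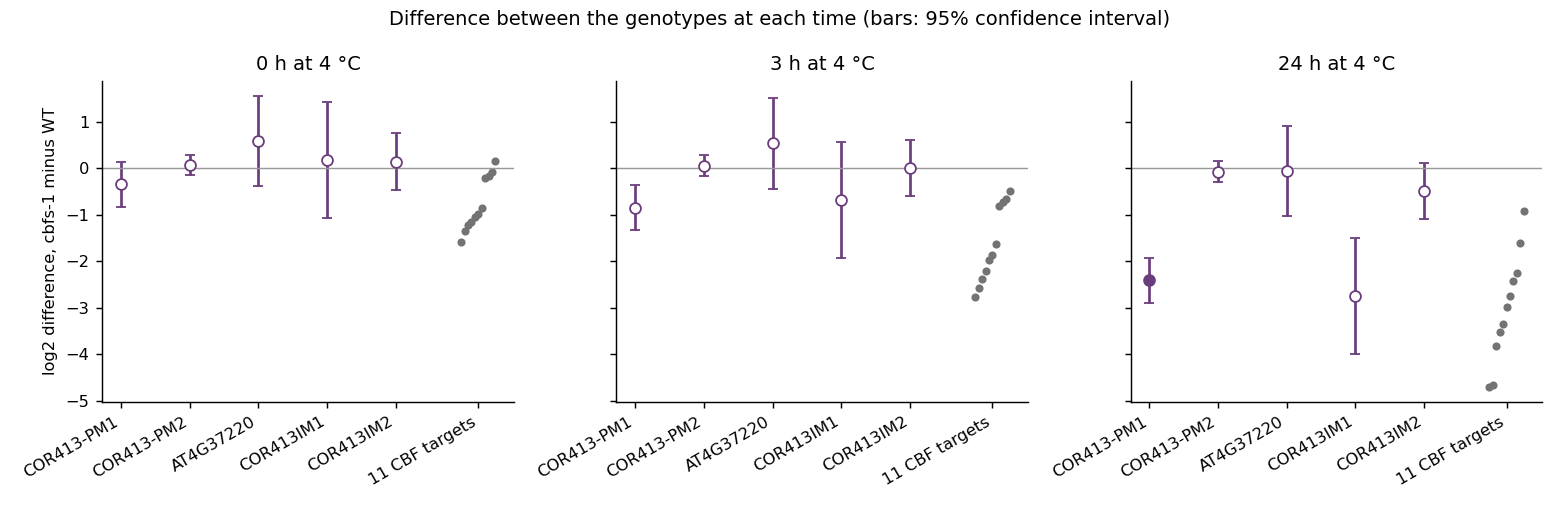
Log2 difference, cbfs-1 minus WT, of each COR413 gene at 0, 3 and 24 h, with 95% confidence intervals of the fit (filled circle, adjusted p under 0.05) and, as grey points, the 11 CBF target genes in order of size. At 24 h COR413-PM1 (-2.41) and COR413IM1 (-2.75) lie within the spread of the CBF targets, whose median is -2.97, and the other 3 members lie above it.

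Whether the cold response itself differed between genotypes was tested as the difference of the responses, cbfs-1 minus WT. At 24 h that difference was -2.07 for COR413-PM1 (SE 0.30, adjusted p = 0.0963) and -2.93 for COR413IM1 (SE 0.78, adjusted p = 0.564), and 0 of 5 members were called, where 0.00968% of all tested genes were. For these 2 members the unadjusted p was under 0.05, and how many of all tested genes shared this was not counted. With the replicate number as a block in limma, COR413-PM1 (adjusted p = 0.00212) and COR413IM1 (adjusted p = 0.0110) were called. The 24 h libraries were not taken as paired by number, however. edgeR called 0 members and DESeq2 called COR413-PM1 (adjusted p = 2.92e-07). COR413-PM1 was also called without WT 24 h replicate 2 (difference -2.37, adjusted p = 0.0201). The differences were -0.63 for COR413IM2 (SE 0.38), -0.14 for COR413-PM2 (SE 0.14) and -0.64 for AT4G37220 (SE 0.61). At 3 h 0.00484% of all tested genes were called. Of the members 0 were called by limma in the main fit, edgeR or DESeq2, and 0 had an unadjusted p under 0.05. The differences lay between -0.86 and -0.02. With separate blocks for the early times (0 h and 3 h) and for 24 h, limma called COR413IM1 (difference -0.86, adjusted p = 0.0312), in a fit that called 6 genes. The single replicate block did not call it.

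Genes of the same setting give the scale. In either direction, 8.85% of all tested genes were called in cbfs-1 and 10.1% in WT at 3 h. At 24 h these shares were 48.2% and 50%, and 0.808% were called between genotypes. Of 11 known CBF target genes, such as COR15A and RD29A, 8 rose in cbfs-1 and 10 in WT at 3 h, and 10 rose in each genotype at 24 h, with median log2 changes at 24 h of 3.15 in cbfs-1 and 5.32 in WT. At 24 h 9 of the 11 were lower in cbfs-1 than in WT, with a median difference of -2.97 where the median of all tested genes was 0.01. COR15A, a chloroplast stroma protein that protects membranes in freezing, rose by 4.54 in cbfs-1 and 7.86 in WT. Of 6 genes of the CBF family itself 5 could be tested. All 5 rose at 3 h in each genotype, and 3 stayed higher than at 0 h after 24 h in each. The rises differed in size, and CBF3 rose at 3 h by 2.85 in cbfs-1 and 9.13 in WT. For the difference of the 3 h responses 1 of the 5 was called, lower in cbfs-1, where 0.00484% of all tested genes were called.

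With 48.2% of all tested genes called in cbfs-1 and 50% in WT at 24 h, the counts on the next lists say little alone. Of 8 other plasma membrane genes with a part in cold or freezing tolerance, 4 rose and 1 fell in cbfs-1 at 24 h. In WT 5 rose and 1 fell. RCI2A, a small hydrophobic membrane protein, rose by 3.23 in cbfs-1 (SE 0.29) and 4.20 in WT (SE 0.29), and TIL, a temperature-induced lipocalin, by 1.64 in cbfs-1 and 2.098 in WT. PLDALPHA1, a phospholipase D, was the member of this list called between genotypes at 24 h (-1.04, SE 0.14, adjusted p = 0.0126). At 3 h 1 of the 8 rose in cbfs-1 and 2 in WT. Of 13 chloroplast envelope genes 5 rose and 1 fell in cbfs-1 at 24 h, and 4 rose and 1 fell in WT. The called increases on this list were at most 0.55, against 1.66 in cbfs-1 and 4.59 in WT for COR413IM1. TPT, the triose phosphate exporter, fell in both (-0.99 in cbfs-1 and -1.07 in WT). MGD1, which makes galactolipid in the inner envelope, was lower in cbfs-1 than in WT at 24 h (-0.79, adjusted p = 0.00551). These lists are given by their counts and say nothing particular about COR413.

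Summed levels of tissue markers shifted between times. The 8 root markers summed to 1932 to 2028 at 0 h and 1378 to 1686 at 24 h in cbfs-1, and to 1928 to 2169 and 1451 to 1492 in WT. The 6 leaf markers summed to 705786 to 717996 at 0 h and 616554 to 675187 at 24 h in cbfs-1, and to 749784 to 755485 and 585875 to 692432 in WT. No marker was listed at 0 in any library. Of all tested genes, 48.2% in cbfs-1 and 50% in WT were called at 24 h. At that time 1 root marker rose and 3 fell in cbfs-1, and 4 fell in WT. Of the leaf markers 1 rose and 2 fell in cbfs-1, and 2 fell in WT. Their part in the COR413 changes was not tested.

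Across the 12 libraries, log2 levels of COR413-PM1 and COR413IM1 had a Pearson r of 0.963, COR413IM1 and COR413IM2 of 0.942, and COR413-PM2 and AT4G37220 of 0.813, whereas COR413-PM1 and COR413-PM2 had -0.49. These are descriptions over libraries that share groups. Among 14986 other genes with a mean of at least 100, the 3 most like each member were also listed. For COR413-PM1 they were AT1G16850 (r = 0.994), the galactinol synthase gene GolS3 (0.988), one of the CBF targets above, and AT5G42570 (0.984). AT1G16850 had 259 and 254 normalized reads in cbfs-1 at 24 h, against 5765 and 3098 in WT. For COR413IM1 they were NIC3, a nicotinamidase gene (0.989), AT3G22142 (0.979) and AT1G33230 (0.972). NIC3 had 311 and 222 at 24 h in cbfs-1, against 1028 and 692 in WT. For COR413IM2 they were AT5G35690 (0.986), AT4G16190 (0.976) and SEX1, the glucan water dikinase that starts leaf starch breakdown (0.975). The SEX1 replicates differed in the same sense as those of the IM genes, at 2314 and 1204 in cbfs-1 at 0 h and 2469 and 1377 in WT at 0 h. SEX1 was chosen for its likeness over the same libraries, so this follows in part from the choice. For COR413-PM2 they were the leucine-rich repeat gene PIRL5 (0.994), the anion channel gene SLAH3 (0.991) and AT4G36850 (0.976), all with their peak at 3 h. For AT4G37220 they were the transcription factor genes MYB96 (0.940) and BEE1 (0.936), and AT5G44260 (0.936).

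AT1G29380, which overlaps COR413IM2, stood at 0.39 in cbfs-1 at 24 h (adjusted p = 0.0733) and rose by 0.59 in WT (adjusted p = 0.0147). ML5 (AT1G29400), which lies on the other side of COR413IM1, stood at -0.09 in cbfs-1 and 0.18 in WT and was not called. AT2G23680, a further gene annotated as WCOR413 but not among the 5 members, stood at 75.4 and 66.1 normalized reads in cbfs-1 at 24 h, against 69.8 and 47.8 in WT, and was called in no comparison.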

How the data were processed

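RNA-seq libraries from 12 samples, 2 for each of 6 groups, were grouped and numbered by the sample titles. Values are signal: per the deposited table's name and its values, the authors scaled the read count of each gene by a DESeq2 size factor per library. All its sample columns were used. Per the submitters' processing notes, the build was TAIR10 and the tools named were DESeq2, HTSeq 0.6.0, Cufflinks 2.2.1 and TopHat2 2.1.0. Their roles and settings, the strandedness and the handling of shared reads were not given in the sources used here, so paralogs and overlapping genes have uncertain values. In each library 100% of values were whole multiples of a step (tolerance 0.001 reads), so whole reads were recovered, 16849042 to 22800552 per library. Their number and the 2 libraries per group limit the precision.

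The 20666 genes that reached a value of 10 in 2 or more libraries were tested on log2(value + 1) with limma 3.58.1 (trend), with 6 group means over all 12 libraries and Benjamini-Hochberg adjustment within each comparison; a call is an adjusted p under 0.05. Fold changes on this scale understate those of low genes. Intervals are 95% intervals of the fit. The count test edgeR 4.0.16 (quasi-likelihood) and DESeq2 1.42.0 on the recovered reads, other pseudocounts, filters and scalings, a replicate block and left-out libraries were alternatives. Deviations of same-numbered libraries correlated at 0.334 to 0.565 for all 6 pairings among groups at 0 h and 3 h. The numbers were therefore taken, from the data, to pair these. The 9 pairs with a 24 h group had 0.0428 to 0.242 and were not taken as paired. The highest of these, 0.242, was between WT and cbfs-1 at 24 h. Pairs of a 24 h group with an earlier group had at most 0.108.

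Genes were named through RefSeq TAIR10.1, which matched 24385 of 24616 loci; coordinates and promoter sequences come from that annotation, since the file holds none. The tests were checked on simulated counts. Only genes with a mean of at least 100 were changed, and only in the WT libraries at 24 h. The simulated libraries were independent, without a shared effect of replicate number. The rates therefore do not cover a gene as low as AT4G37220, or data in which many genes change. For the difference of the 24 h responses, limma recovered 40 of 100 changes of 2 times and 97 of 100 of 4 times. Between genotypes at 24 h it recovered 84 and 99 of 100. Unchanged genes called were 9 and 16 with limma in these comparisons, and 28 and 30 with DESeq2. The rule for named genes was all 5 members, the 3 genes most like each by Pearson r over the 12 libraries, and examples from lists of CBF family genes, CBF targets, plasma membrane genes, envelope genes and tissue markers. The members and lists were chosen with earlier results of these data known.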

Additional observations from a re-analysis of the deposited data

How the results depend on the processing

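The 18 changes called for single members kept their direction and their call in 159 of 162 values under other pseudocounts, filters, scalings, tests and blocks, and in 190 of 216 values with a library left out; none changed direction. The losses are those of COR413-PM2 at 3 h and the left-out libraries named above, and their cause was not tested. Quantile and TMM scaling moved the median of all genes by less than 0.1 on the log2 scale.

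With only the libraries of the groups compared, genes called at 3 h against 0 h were 951 in cbfs-1 and 768 in WT (1828 and 2087 with all libraries). Between genotypes they were 0 at 0 h and 2 at 3 h (8 and 6 with all), and 0 for the difference of the 24 h responses (2 with all). Members called were then 0 in cbfs-1 and 1 in WT at 3 h, 5 in cbfs-1 between 3 h and 24 h, and 2 between genotypes at 24 h. Genes called in the last 2 of these comparisons stayed within 1.5 times of the 8813 and 167 with all libraries. COR413-PM2 was the member lost at 3 h in both genotypes (adjusted p = 0.0894 in cbfs-1 and 0.123 in WT). Quantile normalization left 0 members called at 3 h in cbfs-1 (COR413-PM2 adjusted p = 0.0688). edgeR on the recovered reads kept every count within 1.5 times. DESeq2 called 16, 52 and 352 genes between genotypes at 0, 3 and 24 h (8, 6 and 167 with limma), and 3 and 90 for the differences of the 3 h and 24 h responses. Members called by DESeq2 were 2 at 3 h in cbfs-1, 2 between genotypes at 24 h and 1 for the difference of the 24 h responses. Genes called by DESeq2 at 3 h in cbfs-1 stayed within 1.5 times of the 1828 with limma.

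With the replicate block, genes called at 3 h were 3063 in cbfs-1 and 3455 in WT, those between genotypes 13, 28 and 504 at 0, 3 and 24 h, and those for the difference of the 24 h responses 75. Members called with the replicate block were 3 and 4 at 3 h in cbfs-1 and WT, 5 in cbfs-1 between 3 h and 24 h, 1 and 3 between genotypes at 3 h and 24 h, and 2 for the difference of the 24 h responses. For comparisons with a 24 h group the numbers were not taken as paired. There the replicate block called the differences of the 24 h responses of COR413-PM1 (adjusted p = 0.00212) and COR413IM1 (0.0110). It also called the differences between genotypes at 24 h of COR413IM1 (0.000614) and COR413IM2 (0.0409). The 24 h change of COR413IM2 in cbfs-1 was called as well (0.000495). None of these passed in the main fit, but some passed with DESeq2 or with only the libraries compared, as given above. The block by time called the same changes and differences, and the difference of the 24 h responses of COR413IM2 (adjusted p = 0.0195). In that fit a change from an earlier time to 24 h refers to the level of replicate 1. The 24 h change of COR413IM2 in cbfs-1 was then 0.54, against 0.65 in the main fit. With the block by time, genes called were 4698 in cbfs-1 and 5151 in WT at 3 h, and 35, 88 and 1257 between genotypes. For the differences of the 3 h and 24 h responses they were 6 and 261. With either block, genes called in cbfs-1 between 3 h and 24 h stayed within 1.5 times of the 8813 in the main fit. Members called were 4 and 4 at 3 h, and 5 in cbfs-1 between 3 h and 24 h. Between genotypes at 3 h and 24 h they were 2 and 3, and for the differences of the responses 1 and 3.

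With a library left out, genes called ranged from 637 to 1869 in cbfs-1 and 874 to 1969 in WT at 3 h, 5786 to 8819 in cbfs-1 between 3 h and 24 h, 0 to 8, 1 to 16 and 27 to 200 between genotypes at 0, 3 and 24 h, and 0 to 2 and 0 to 53 for the differences of the 3 h and 24 h responses. Members called ranged from 0 to 1 in cbfs-1 and 0 to 2 in WT at 3 h, 1 to 4 in cbfs-1 between 3 h and 24 h, and 0 to 1 for the difference of the 24 h responses. Changes of sign occurred among uncalled values near 0. With pseudocount 5 the difference of the 3 h responses of AT4G37220 was 0.012, against -0.05 with 1. COR413IM2 at 3 h was -0.0037 in cbfs-1 with quantile normalization, and its difference between genotypes at 3 h was -0.0025 with edgeR and -0.00074 with DESeq2. With a library left out, COR413-PM2 ranged from -0.20 to 0.067 between genotypes at 24 h and from -0.062 to 0.028 for the difference of the 3 h responses. COR413IM1 ranged from -0.23 to 0.99 in cbfs-1 at 3 h and from -0.46 to 0.82 between genotypes at 0 h. COR413IM2 ranged from -0.24 to 0.35 in cbfs-1 and -0.11 to 0.48 in WT at 3 h, from -0.15 to 0.44 and -0.28 to 0.31 between genotypes at 0 h and 3 h, and from -0.43 to 0.17 for the difference of the 3 h responses. AT4G37220 ranged from -0.45 to 0.72 in WT at 24 h, from -0.64 to 0.53 between genotypes at 24 h, and from -0.49 to 0.38 for the difference of the 3 h responses. With Spearman's rho in place of Pearson's r, 1 of the 3 most alike genes was shared for each member. Depth limits AT4G37220 most, with 10 to 59 reads per library.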
